A study of Mus musculus with 8 samples.

Results

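The sirtuins are a family of 7 genes, *Sirt1* to *Sirt7*, and their mRNAs were followed here in 8 fetal mouse hearts on microarrays. Members were found by the transcript accession that the array design gives each probe, and every probe of a member was kept. This gave 12 probes of 7 genes, out of 41174 probes on the array and 19096 genes that could be named. *Sirt2* has 3 probes, *Sirt1*, *Sirt5* and *Sirt7* have a pair each, and *Sirt3*, *Sirt4* and *Sirt6* have 1 probe each. Probes of 1 gene are assigned to transcripts of that gene, in *Sirt5* to different ones, so the 12 probes are not 12 independent measurements.

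The hearts came from embryos at E18.5, shortly before birth, of C57BL/6 mice (C57BL/6J in the study's methods) on a chow diet. The 4 wild-type (WT) hearts and the 4 hearts labelled SIRT1 KO were hybridized to one-color Agilent arrays with Cy3 as the dye, 1 heart per array. SIRT1 KO stands for a germ-line deletion of *Sirt1* in the whole body, with no Cre driver, and the embryos came from matings of heterozygous parents, with hearts of both sexes used. No treatment was given to either genotype. Each value is the log2 processed signal of a probe minus the 75th percentile of its array, so that 0 is the signal of a probe at that percentile, and differences are those of the hearts labelled SIRT1 KO minus the WT hearts. A whole heart holds several cell types, and in such samples fewer cells of a type and less RNA per cell cannot be told apart. The series' design text speaks of pairs of hearts, but no source used here says what a pair shared, and p-values measure the spread between these 8 samples.

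Sirtuins are enzymes that consume NAD+ to remove acetyl or other acyl groups from lysines, or in some members to transfer ADP-ribose. SIRT1, SIRT6 and SIRT7 are found mainly in the nucleus, where SIRT1 deacetylates transcription factors and histones, SIRT6 acts on histone H3 and in DNA repair, and SIRT7 is concentrated in the nucleolus. SIRT2 is mainly cytosolic and deacetylates tubulin. SIRT3, SIRT4 and SIRT5 are mitochondrial, and heart muscle is rich in mitochondria. Since they all consume NAD+, enzymes that make or consume NAD+ were examined beside them.

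The promoters of *Sirt1* and *Sirt4* are printed because these are the 2 genes with a probe past the threshold below. Each sequence is the 250 bases before the gene's start from RefSeq (GRCm38.p6), 5′ to 3′ on the gene's own strand, which is the minus strand in both. Capitals mark the E-box CACGTG, a binding motif of basic helix-loop-helix factors, and the GC box GGGCGG or its reverse complement CCGCCC, a motif of Sp factors. The *Sirt1* stretch is chr10:63339036-63339285 and the *Sirt4* stretch is chr5:115484298-115484547.
Sirt1: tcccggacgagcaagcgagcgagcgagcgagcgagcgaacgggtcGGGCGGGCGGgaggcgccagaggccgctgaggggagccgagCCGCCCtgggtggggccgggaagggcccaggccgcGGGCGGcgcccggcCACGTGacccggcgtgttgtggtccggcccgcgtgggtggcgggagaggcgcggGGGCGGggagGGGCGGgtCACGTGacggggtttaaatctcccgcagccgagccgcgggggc
Sirt4: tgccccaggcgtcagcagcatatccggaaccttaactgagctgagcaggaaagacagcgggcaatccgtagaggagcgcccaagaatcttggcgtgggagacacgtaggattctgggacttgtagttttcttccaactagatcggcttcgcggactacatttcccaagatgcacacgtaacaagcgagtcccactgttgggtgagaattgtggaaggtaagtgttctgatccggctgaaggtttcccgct

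The *Sirt1* stretch holds 2 E-boxes, whose first bases lie 115 and 43 bases before the start, and 6 GC boxes, and its GC content is 79.2%. The *Sirt4* stretch holds neither motif and its GC content is 53.2%. Among 32851 mouse promoters of that length, 6.02% hold an E-box and 32.7% a GC box on either strand. No stretch of the other 5 members holds an E-box, and those of *Sirt2*, *Sirt5* and *Sirt7* hold 1 GC box each. The CCAAT box, found in 33.9% of all promoters, occurs in the stretches of *Sirt2* and *Sirt5*, and the cAMP response element TGACGTCA, found in 1.55%, occurs in no member. The 2 genes thus differ in these letters. The matches describe the sequence and are not evidence of binding.

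All 12 sirtuin probes were well above background on all 8 arrays, and all were therefore tested. Per array, 59.5% to 64.9% of all probes reached that level, and saturation was absent. In WT hearts the 75th percentile used for scaling was 939 to 1033 intensity units, against 777 to 906 in the hearts labelled SIRT1 KO. Each genotype was hybridized on a slide of its own and scanned separately, and the effects of genotype, slide and scan cannot be told apart. The number of arrays limits the precision.

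Of the 12 sirtuin probes, 2 had a limma adjusted p under 0.05, and both were higher in the hearts labelled SIRT1 KO. They were the brighter *Sirt1* probe and the only *Sirt4* probe, and no sirtuin probe was lower past the threshold. The 2 called probes are 16.7% of the members, beside 4.88% of the 25616 tested probes of the array called in either direction by the same fit. In 5 sirtuin probes, or 41.7%, the genotypes did not overlap, and in all 5 the hearts labelled SIRT1 KO were higher, beside 13.7% of all tested probes without overlap. Besides the 2 called probes these were the dimmer *Sirt5* probe and both *Sirt7* probes. The 12 probes were evenly split, with 6 higher and 6 lower. Their median log2 fold change was 0.01, as it was over all tested probes (0.01), and the range was -0.30 to 0.54. The call of both probes was lost under several alternatives, and the analysis of variance that the study's methods name, computed here probe by probe, called 0 of the 12 and 2.13% of all tested probes. In the limma fit 5 of the 12 had an unadjusted p under 0.05, a level that 20.4% of all tested genes reached on their brightest probe. On the brightest probe of each of the 7 members, only *Sirt1*, *Sirt4* and *Sirt7* reached it.

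**Figure D1:**
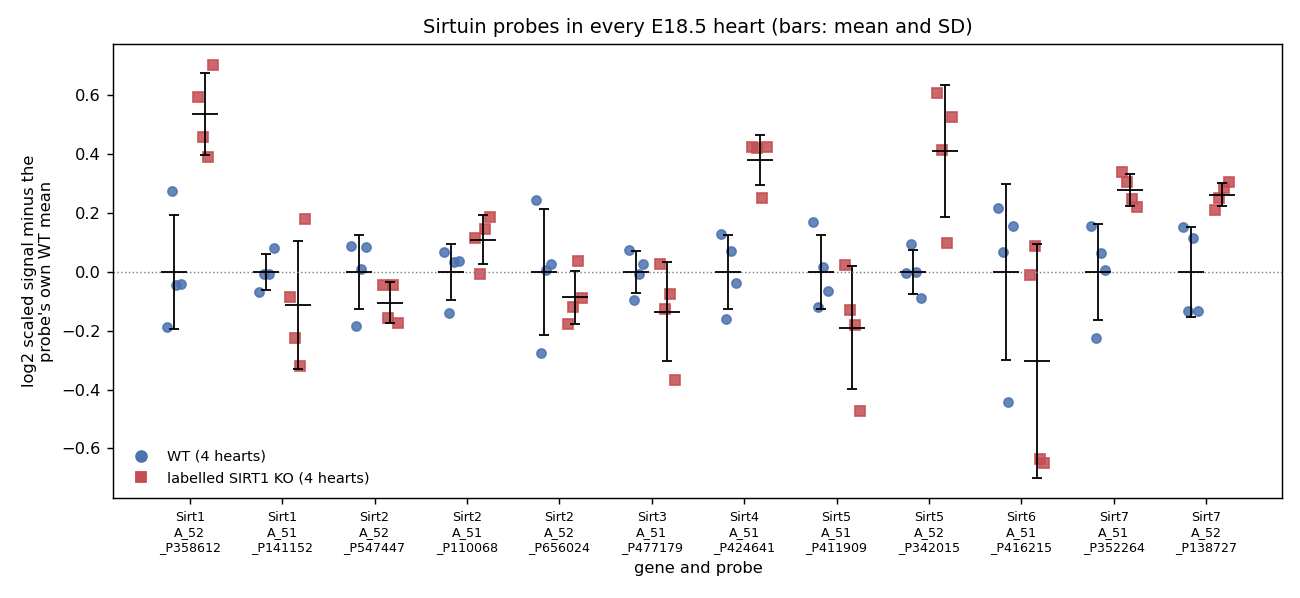
Signal of the 12 sirtuin probes in every E18.5 heart, as log2 scaled signal minus the mean of the 4 WT hearts for that probe (vertical axis), with WT hearts as circles and hearts labelled SIRT1 KO as squares; bars give the mean and SD of 4 hearts. The 4 squares lie above the 4 circles for the brighter *Sirt1* probe, *Sirt4*, the dimmer *Sirt5* probe and both *Sirt7* probes.

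*Sirt1*, the targeted gene, was examined first. On its brighter probe (A_52_P358612) the WT hearts gave log2 signals of -0.14, 0.32, 0.0007 and 0.0018, and the hearts labelled SIRT1 KO gave 0.64, 0.50, 0.43 and 0.75. The lowest heart labelled SIRT1 KO lay above the highest WT heart, WT replicate 2. The means were 0.04 ± 0.19 and 0.58 ± 0.14 (SD, n = 4 each), which makes a log2 fold change of 0.54 (SE 0.11, 95% confidence interval 0.28 to 0.80, limma adjusted p = 0.0323). On the linear scale, relative to the WT mean, the hearts labelled SIRT1 KO were at 1.45 ± 0.0707 (s.e.m., n = 4), between 1.30 and 1.62. The exact two-sided permutation test gave p = 0.0286, the smallest that 4 against 4 allow.

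The other *Sirt1* probe (A_51_P141152) did not follow it. Its WT values were -0.27, -0.21, -0.21 and -0.12, and its values in the hearts labelled SIRT1 KO were -0.29, -0.42, -0.52 and -0.02. The genotypes overlapped, since SIRT1 KO replicate 4 was the highest of the 8 hearts, while the other 3 labelled SIRT1 KO lay below every WT heart. The log2 fold change was -0.11 (SE 0.11, limma adjusted p = 0.589), and its 95% confidence interval of -0.36 to 0.14 corresponds to a change of -22.1% to 9.85%. Neither *Sirt1* probe was therefore lower past the threshold in the hearts labelled SIRT1 KO. The deleted part of the gene and the position of the probes in the transcript are not given in the sources used here, so the probes check nothing about the labels.

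Within each array the difference between the *Sirt1* probes is free of the scaling of that array. The brighter minus the dimmer probe was 0.12, 0.53, 0.21 and 0.12 on the log2 scale in the WT hearts and 0.92, 0.93, 0.95 and 0.77 in the hearts labelled SIRT1 KO. The probes thus stood further apart in every heart labelled SIRT1 KO than in any WT heart. The mean rose from 0.24 ± 0.19 to 0.89 ± 0.08 (SD, n = 4 each), by 0.65 with a SE of 0.10 (exact two-sided permutation test p = 0.0286, Benjamini-Hochberg adjusted over the 6 pairs of probes 0.0571). Under the alternatives run it stayed between 0.53 and 0.74.

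In the same comparison the *Sirt7* probes kept their distance, with a mean of 0.31 ± 0.10 in the WT hearts and 0.33 ± 0.09 in the hearts labelled SIRT1 KO (SD, n = 4 each, exact two-sided permutation test p = 0.8). The *Sirt5* probes came closer by 0.60 and the brightest and middle *Sirt2* probes by 0.21, without overlap of the genotypes in either (exact two-sided permutation test p = 0.0286 and adjusted 0.0571 for both). The dimmer *Sirt5* probe is assigned to a predicted transcript and was dim, at 53.9 to 89.6 intensity units. After the genotype means were taken away, the *Sirt5* probes correlated at a Pearson r of 0.007 over the 8 arrays. The other pairs of *Sirt2* probes differed between genotypes by -0.02 and 0.20 (exact two-sided permutation test p = 0.8 and p = 0.0857). Pairs of probes without overlap between the genotypes were thus seen in *Sirt1*, *Sirt2* and *Sirt5*. The share of such pairs among other genes of the array was not computed, so this cannot be called particular to the sirtuins. None of the 6 pairs passed 0.05 after adjustment, and with 4 hearts per genotype and 6 pairs a single pair could not.

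**Figure D2:**
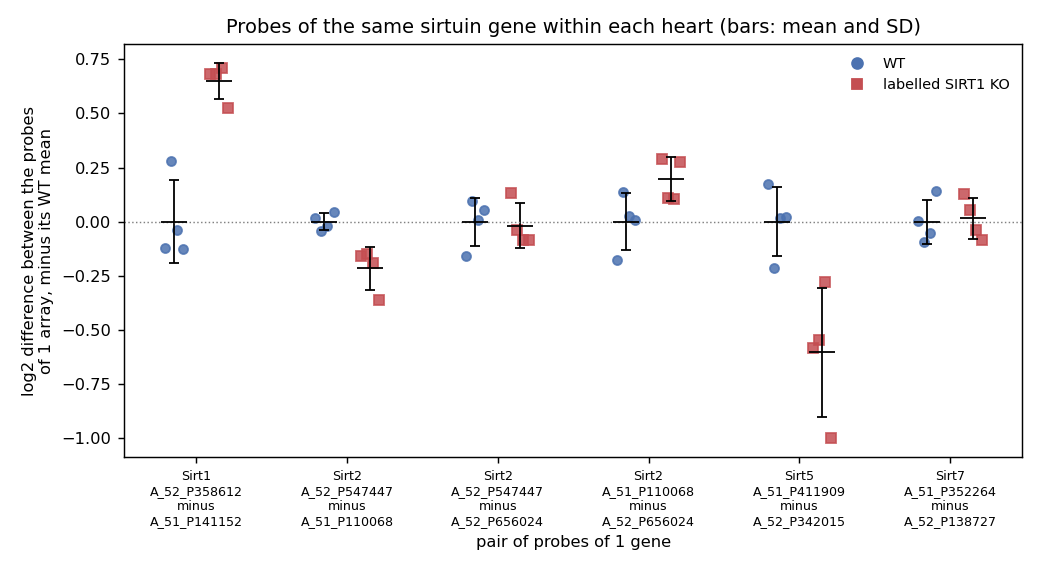
Difference between 2 probes of the same gene within each array, in log2 units and relative to the WT mean of that pair (vertical axis), for the 6 pairs of sirtuin probes; circles are WT hearts, squares hearts labelled SIRT1 KO, and bars the mean and SD of 4 hearts. The *Sirt1* pair is further apart by 0.65, the *Sirt5* pair closer by 0.60, and the *Sirt7* pair is at 0.02. The dimmer probe of the *Sirt5* pair was dim and is assigned to a predicted transcript.

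*Sirt2* encodes the mainly cytosolic member, which deacetylates tubulin. On its brightest probe (A_52_P547447) the WT hearts gave 2.10, 1.83, 2.02 and 2.09, and the hearts labelled SIRT1 KO gave 1.97, 1.86, 1.97 and 1.84. The values overlapped, with WT replicate 2 the lowest of all, and the log2 fold change was -0.10 (95% confidence interval -0.29 to 0.09, limma adjusted p = 0.506). The interval corresponds to a change of -18.4% to 6.07%. The middle probe (A_51_P110068) went the other way by 0.11 (limma adjusted p = 0.45), from 0.81 ± 0.09 to 0.92 ± 0.08 (SD, n = 4 each), and the dimmest (A_52_P656024) had a log2 fold change of -0.09 (limma adjusted p = 0.694). The direction of the middle probe flipped to -0.02 with median scaling and to -0.11 with no scaling between arrays. Both settings shift all probes of an array alike, and relative to the median of all probes the middle probe was at 0.10 in each. No *Sirt2* probe on its own separated the genotypes.

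*Sirt3* encodes the main deacetylase of the mitochondrial matrix, and its probe (A_51_P477179) was bright in every heart, at 20202 to 32603 intensity units. The log2 signals were 4.99, 4.82, 4.91 and 4.94 in the WT hearts and 4.94, 4.79, 4.84 and 4.55 in the hearts labelled SIRT1 KO. SIRT1 KO replicates 2 and 4 lay below every WT heart, replicate 4 the lowest, and the other two lay within the WT range. The log2 fold change was -0.14 (SE 0.10, 95% confidence interval -0.35 to 0.08, limma adjusted p = 0.444).

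*Sirt4* encodes a mitochondrial sirtuin that acts as ADP-ribosyltransferase and lipoamidase and restrains glutamate and pyruvate dehydrogenase. Its probe (A_51_P424641) gave 1.54, 1.25, 1.48 and 1.37 in the WT hearts and 1.83, 1.83, 1.66 and 1.83 in the hearts labelled SIRT1 KO. All 4 hearts labelled SIRT1 KO lay above all 4 WT hearts, and SIRT1 KO replicate 3 was the lowest of its group. The mean went from 1.41 ± 0.13 to 1.79 ± 0.09 (SD, n = 4 each), a log2 fold change of 0.38 (SE 0.09, 95% confidence interval 0.19 to 0.58, limma adjusted p = 0.0403; exact two-sided permutation test p = 0.0286). Relative to the WT mean the hearts labelled SIRT1 KO were at 1.30 ± 0.0376 on the linear scale (s.e.m., n = 4). Its known enzyme partners are among the mitochondrial substrates described below.

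*Sirt5* encodes the mitochondrial desuccinylase and demalonylase. Its brighter probe (A_51_P411909) gave 3.20, 2.91, 3.05 and 2.97 in the WT hearts and 3.06, 2.90, 2.85 and 2.56 in the hearts labelled SIRT1 KO. SIRT1 KO replicates 2, 3 and 4 lay below every WT heart, replicate 4 again the lowest, and replicate 1 lay within the WT range. The log2 fold change was -0.19 (95% confidence interval -0.45 to 0.07, limma adjusted p = 0.379). The dimmer probe (A_52_P342015), which the design assigns to a predicted transcript, was at 53.9 to 89.6 intensity units, 2.75 to 5.44 times the lowest signal called well above background on its array. It gave -3.95, -3.85, -3.95 and -4.04 in the WT hearts and -3.34, -3.53, -3.85 and -3.42 in the hearts labelled SIRT1 KO. The genotypes did not overlap, although SIRT1 KO replicate 3 and WT replicate 2 lay side by side. The log2 fold change was 0.41 (95% confidence interval 0.16 to 0.67, limma adjusted p = 0.0771; exact two-sided permutation test p = 0.0286), opposite in sign to the brighter probe.

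*Sirt6* encodes a chromatin-bound deacylase of histone H3, and its probe (A_51_P416215) was the least precise of the family. It was at 30.0 to 71.6 intensity units, 1.53 to 3.86 times the lowest signal well above background. The log2 signals were -3.84, -3.99, -4.50 and -3.90 in the WT hearts and -4.07, -3.97, -4.69 and -4.71 in the hearts labelled SIRT1 KO. SIRT1 KO replicates 3 and 4 lay below every WT heart and replicates 1 and 2 within the WT range, and the log2 fold change was -0.30 (SE 0.21, 95% confidence interval -0.78 to 0.18, limma adjusted p = 0.44). Its spread within genotypes, an SD of 0.35, was greater than that of 91.1% of all tested probes. With normexp, which here started from the median spot signal in place of the processed signal and added an offset of 50 units, the difference flipped to 0.04.

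*Sirt7* encodes the nucleolar member, a regulator of ribosomal RNA transcription. Its brighter probe (A_51_P352264) gave 2.12, 1.75, 2.03 and 1.98 in the WT hearts and 2.31, 2.28, 2.22 and 2.19 in the hearts labelled SIRT1 KO. The dimmer probe (A_52_P138727) gave 1.81, 1.52, 1.77 and 1.52 in the WT hearts and 1.87, 1.91, 1.94 and 1.96 in the hearts labelled SIRT1 KO. On both probes all hearts labelled SIRT1 KO lay above all WT hearts. The log2 fold changes were 0.28 (95% confidence interval 0.07 to 0.49, limma adjusted p = 0.127) and 0.26 (95% confidence interval 0.06 to 0.46, limma adjusted p = 0.133), and the exact two-sided permutation test gave p = 0.0286 for each. Neither passed the threshold of the fit across all probes, under any alternative run.

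**Figure D3:**
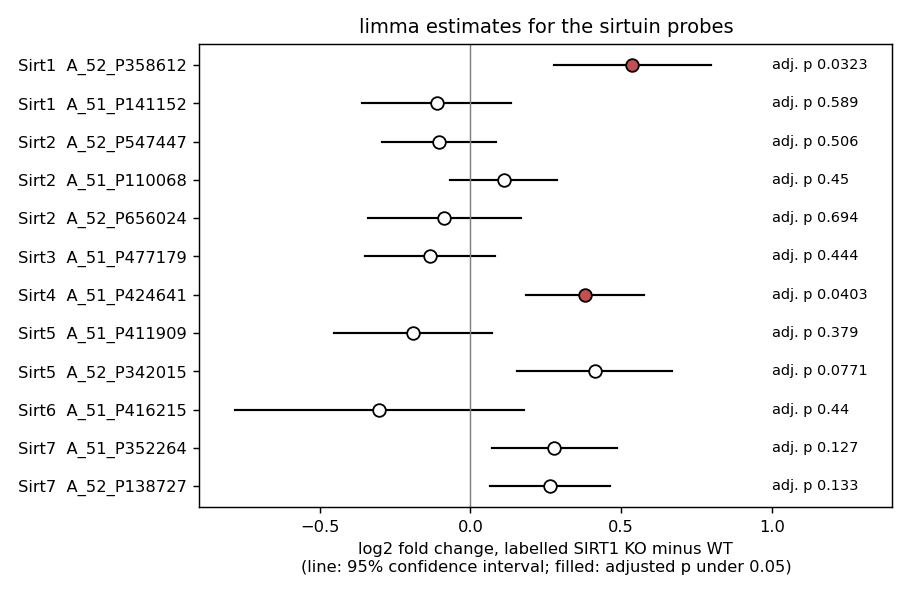
Log2 fold change of the 12 sirtuin probes, hearts labelled SIRT1 KO minus WT (horizontal axis), with 95% confidence intervals from limma as lines and filled symbols for an adjusted p under 0.05. The brighter *Sirt1* probe (0.54) and *Sirt4* (0.38) are filled, and the intervals of the dimmer *Sirt5* probe and both *Sirt7* probes also lie above 0.

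The 2 called probes depended on the scaling between arrays. Both passed the threshold with quantile normalization and with cyclic loess, and neither did with median scaling or no scaling. The SIRT1 KO arrays were dimmer as a whole, and with no scaling the median of all probes was -0.21 instead of 0.01, while the brighter *Sirt1* probe was at 0.32 and *Sirt4* at 0.16. In plain intensity units the genotypes overlapped for both probes. The brighter *Sirt1* probe lay between 927 and 1287 units in the WT hearts and between 1050 and 1450 in the hearts labelled SIRT1 KO, and *Sirt4* lay between 2427 and 2973 and between 2457 and 3231. Relative to the median of all probes, *Sirt1* was at 0.53 and *Sirt4* at 0.37 both with no scaling and with median scaling. These values could not differ between the settings, since each shifts all probes of an array by 1 constant. Over all alternatives the limma adjusted p ran from 0.0096 to 0.274 for the brighter *Sirt1* probe and from 0.0172 to 0.316 for *Sirt4*. With 1 heart left out the brighter *Sirt1* probe stayed between 0.47 and 0.63 and *Sirt4* between 0.33 and 0.42, and each passed the threshold in 2 of the 8 fits. Both passed when SIRT1 KO replicate 3 was left out, *Sirt1* also when WT replicate 2 was left out, and *Sirt4* also when WT replicate 1 was left out.

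**Figure D4:**
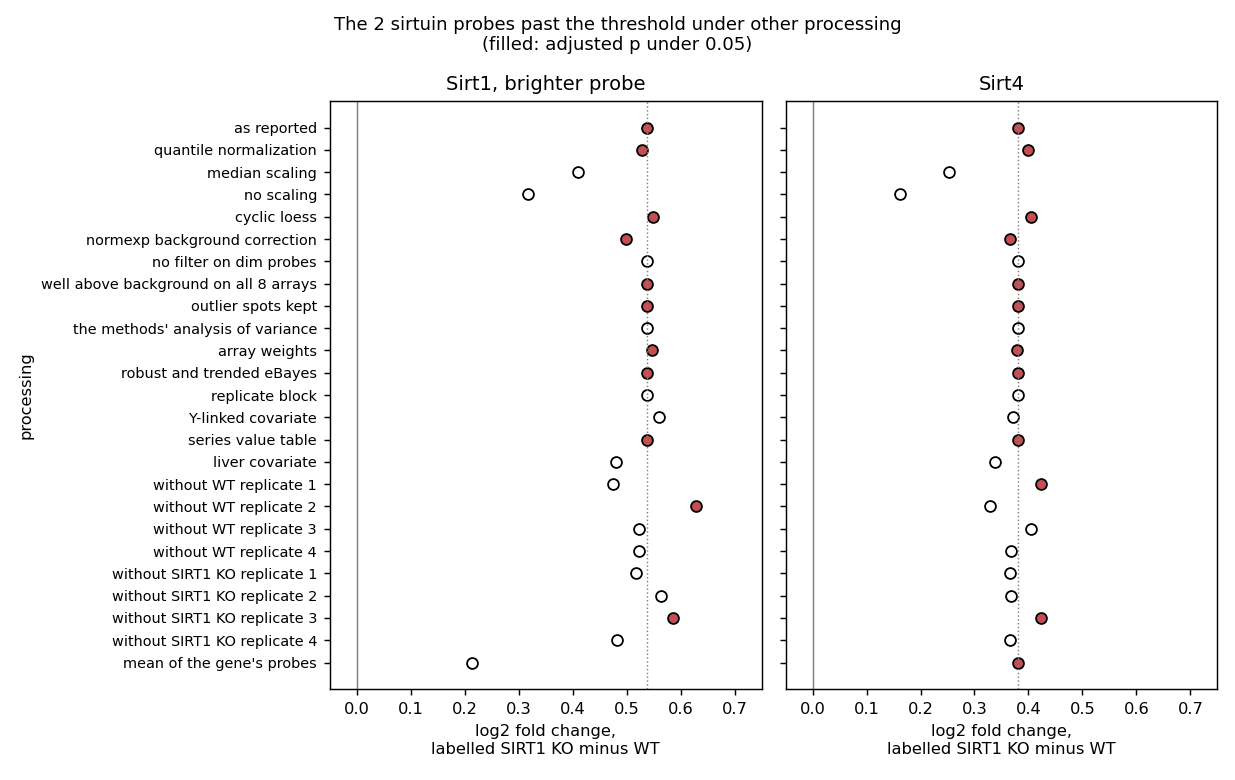
Log2 fold change, hearts labelled SIRT1 KO minus WT, of the brighter *Sirt1* probe (left) and *Sirt4* (right) as reported and under each alternative processing; filled symbols have an adjusted p under 0.05 and the dotted line is the value as reported. All values are above 0, from 0.21 to 0.63 for *Sirt1* and from 0.16 to 0.42 for *Sirt4*, and 10 and 11 of the 24 alternatives pass the threshold.

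The genes around *Sirt1* on chromosome 10 were compared, since a targeted allele is inherited together with its surroundings. Of the 10 nearest tested genes on each side, 11 were higher and 9 lower, with a median of 0.02, and 0 of the 20 passed the threshold with limma, with 4 at an unadjusted p under 0.05 and 3 by the methods' analysis of variance, where 20.4% of all tested genes were under 0.05 with limma and 20.6% with the analysis of variance. Over all genes with a tested probe, 4.58% of 13594 passed on their brightest probe. The smallest p among the neighbours was that of *Hnrnph3*, a splicing factor of the hnRNP family, with a log2 fold change of 0.24 (SE 0.07, limma adjusted p = 0.096). The brighter *Sirt1* probe lay above all 20 of them, the highest being *Pbld2* at 0.28. Around the other sirtuins the nearest tested gene on each side was taken. *Msi1*, which encodes the RNA-binding protein Musashi-1 and is the neighbour of *Sirt4* on chromosome 5, rose by 0.77 (SE 0.11, limma adjusted p = 0.0048), from -2.54 ± 0.21 to -1.77 ± 0.05 (SD, n = 4 each). *Pxn*, on the other side of *Sirt4*, was at 0.13 (limma adjusted p = 0.45) and at 0.34 on its other probe (limma adjusted p = 0.0903), and none of the 10 genes beside *Sirt2*, *Sirt3*, *Sirt5*, *Sirt6* and *Sirt7* passed.

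**Figure D5:**
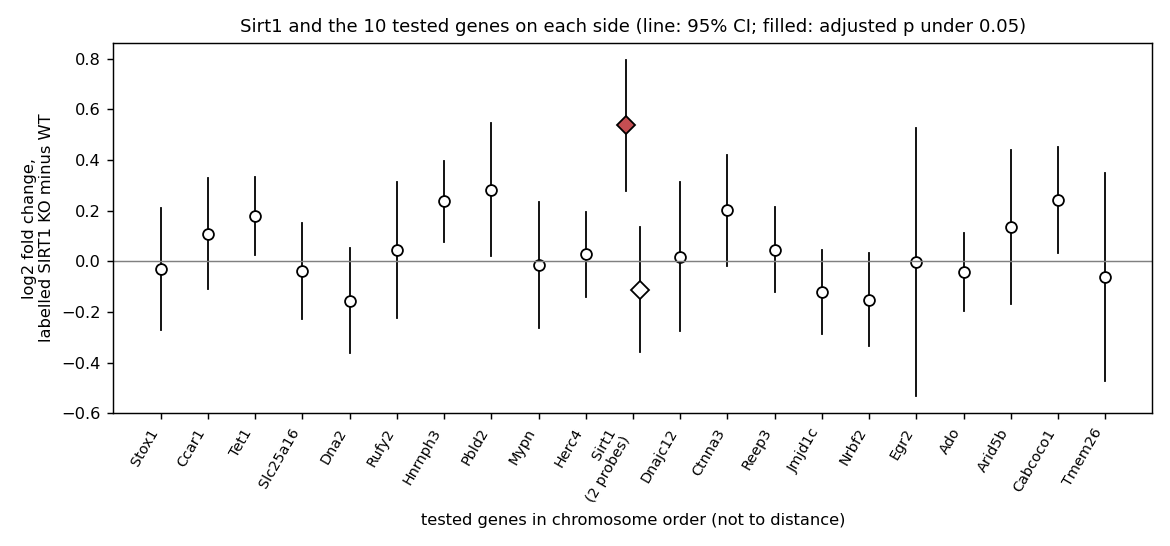
Log2 fold change, hearts labelled SIRT1 KO minus WT (vertical axis), of the 2 *Sirt1* probes (diamonds) and of the 10 tested genes on each side in chromosome order (circles), with 95% confidence intervals from limma; only the brighter *Sirt1* probe is filled, for an adjusted p under 0.05. The neighbours lie between -0.16 and 0.28.

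Genes whose proteins act on *Sirt1* or on SIRT1 came next. Of 20 regulators of *Sirt1* or its protein 19 were tested, with 11 higher, 8 lower, a median of 0.02 and 0 past the threshold with limma, and 2 at an unadjusted p under 0.05 by limma and by the methods' analysis of variance. Over all tested genes these shares were 4.58% past the threshold and 20.4% and 20.6% at an unadjusted p under 0.05. The smallest p values belonged to *Csnk2a1*, a catalytic subunit of casein kinase 2 that phosphorylates SIRT1 (-0.22, limma adjusted p = 0.125), *Rps19bp1*, the activator AROS (-0.26, limma adjusted p = 0.232), and *Usp22*, a deubiquitinase that stabilizes SIRT1 (0.45, limma adjusted p = 0.268). *Ccar2*, the inhibitor DBC1, was at 0.02 (limma adjusted p = 0.913).

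Of 15 tested genes of NAD+ supply and use, 1 passed the threshold, beside 4.58% of all tested genes. *Bst1* (CD157), an ectoenzyme that cleaves NAD+, fell by 0.62 on the log2 scale (SE 0.10, 95% confidence interval -0.86 to -0.39, limma adjusted p = 0.0107). Its WT hearts gave -3.05, -2.69, -2.91 and -2.99, and its hearts labelled SIRT1 KO gave -3.42, -3.59, -3.43 and -3.68, without overlap, at 67.1 to 160 intensity units. In the list 6 genes were higher and 9 lower, with a median of -0.03. The nicotinamide riboside kinases gave values of opposite sign that did not pass, 0.39 for *Nmrk1* (limma adjusted p = 0.0684) and -0.55 for *Nmrk2*, the muscle form (limma adjusted p = 0.162). *Nampt*, the rate-limiting enzyme of NAD+ salvage, was at 0.04 (limma adjusted p = 0.858).

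Of 36 tested SIRT1 substrates, 15 were higher and 21 lower, with a median of -0.03, and 1 passed the threshold, again beside 4.58% of all tested genes. *Trp53*, which encodes p53, a classical SIRT1 substrate, rose by 0.59 (SE 0.09, 95% confidence interval 0.39 to 0.79, limma adjusted p = 0.0074). Its values were -1.05, -1.22, -1.13 and -0.93 in the WT hearts and -0.61, -0.49, -0.36 and -0.51 in the hearts labelled SIRT1 KO, so the genotypes did not overlap. Its other probe was at 0.12 (limma adjusted p = 0.539), another gene whose probes gave different calls. *Crtc2*, a coactivator of CREB, was at 0.26 (limma adjusted p = 0.0695) and *Ep300*, an acetyltransferase that SIRT1 deacetylates, at 0.34 (limma adjusted p = 0.0907), with its other probe at 0.38. *Foxo1* and *Ppargc1a*, metabolic substrates, were at 0.03 and -0.14 (limma adjusted p = 0.911 and 0.592).

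Of 28 tested substrates of the mitochondrial sirtuins, 9 were higher and 19 lower, with a median of -0.05 and 0 past the threshold with limma, and 3 at an unadjusted p under 0.05, against 5 by the methods' analysis of variance, beside the same shares of all tested genes (4.58% past the threshold, 20.4% and 20.6% unadjusted). The smallest p values were those of *Pdha1*, a subunit of pyruvate dehydrogenase (-0.28, limma adjusted p = 0.0734, with its other probe at 0.01), *Hadha*, a fatty acid oxidation enzyme (-0.27, limma adjusted p = 0.081), and *Slc25a4*, the ADP/ATP carrier of heart muscle (0.25, limma adjusted p = 0.188, with its other probe at 0.02). *Glud1*, the glutamate dehydrogenase that SIRT4 restrains, was at 0.06, and *Dlat*, the lipoylated subunit of pyruvate dehydrogenase, at -0.02 (limma adjusted p = 0.687 and 0.935). Of 22 tested partners of SIRT2, SIRT6 and SIRT7, 5 were higher and 17 lower, with a median of -0.08 and 0 past the threshold with limma, 0 at an unadjusted p under 0.05 and 1 by the methods' analysis of variance, beside those shares. Among the smallest p values were those of the histone H4 methyltransferase *Kmt5a* (-0.14, limma adjusted p = 0.3) and the mitotic checkpoint kinase *Bub1b* (-0.23, limma adjusted p = 0.315).

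Defining markers were compared with the label of the tissue, and their counts stand beside 4.58% of all tested genes past the threshold and 20.4% at an unadjusted p under 0.05 by limma (20.6% by the analysis of variance). All 12 cardiomyocyte markers were tested, with a mean log2 signal of 6.49 to 6.68 per heart. On the brightest probe of each gene 9 were higher and 3 lower, and 0 passed the threshold with limma, with 3 at an unadjusted p under 0.05 by limma and by the methods' analysis of variance. A dimmer probe of *Myh7*, the slow myosin heavy chain, did pass, at 0.36 (limma adjusted p = 0.0283). None of 8 lung markers and 2 of the 6 thymus markers matched to a probe were well above background on enough arrays to be tested. The tested thymus markers were *Dntt* at 0.80 and *Lck* at -0.70 (limma adjusted p = 0.114 and 0.068), each without overlap of the genotypes. Both were dim, at 17.7 to 58.3 and 27.9 to 83.9 intensity units. The 7 tested liver markers were all higher in the hearts labelled SIRT1 KO, with a median of 1.32, but 0 passed the threshold with limma, with 1 at an unadjusted p under 0.05 and 0 by the methods' analysis of variance. Their mean log2 signal was -0.01, -0.60, -0.82 and 0.64 in the WT hearts and 2.72, 0.04, -0.47 and 1.84 in the hearts labelled SIRT1 KO, so SIRT1 KO replicates 1 and 4 stood above the rest. With that mean as a covariate, the brighter *Sirt1* probe was at 0.48 (limma adjusted p = 0.128) and *Sirt4* at 0.34 (limma adjusted p = 0.151). The 10 endothelial markers had log2 fold changes from -0.25 to -0.03 with this scaling, with 0 past the threshold with limma and 2 at an unadjusted p under 0.05 by limma and by the methods' analysis of variance, and their mean log2 signal was 2.17 to 2.41 in the WT hearts and 2.06 to 2.28 in the hearts labelled SIRT1 KO. Of 6 tested erythroid markers *Hbb-y*, an embryonic globin, rose by 0.92 (limma adjusted p = 0.0078) while 3 were lower. Of 10 macrophage and leukocyte markers 8 were higher and of 10 fibroblast and epicardial markers 4 were higher, with 0 past the threshold with limma in either list and 2 and 1 at an unadjusted p under 0.05 by limma and by the methods' analysis of variance. The part of other cell types in the sirtuin values was not tested beyond the liver covariate.

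The members also varied from heart to heart within a genotype. After the mean of each genotype was taken away, the brightest probes of *Sirt3* and *Sirt5* moved together most closely over the 8 arrays (Pearson r = 0.93), followed by *Sirt4* and *Sirt7* (0.83) and *Sirt2* and *Sirt7* (0.82). The brighter *Sirt1* probe moved against *Sirt2* (-0.80) and *Sirt7* (-0.79), the lowest of the 21 pairs. These are descriptions of 8 arrays that share 1 scaling value each, and no p is given. Among 13535 genes compared, those most like the brighter *Sirt1* probe were *Tmed8* (0.988), *Rock1* (0.983) and *Senp7* (0.98), and those most like *Sirt4* were *Csnk1g1* (0.963), *Leo1* (0.963) and *9330151L19Rik* (0.962). With so few arrays, 38 genes reached an r over 0.9 with *Sirt1* and 42 with *Sirt4*. None of these 6 genes passed the threshold between genotypes, with log2 fold changes from -0.23 to 0.19.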

How the data were processed

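The authors deposited, for each of the 8 arrays, the spot intensity that Agilent Feature Extraction (12.0.0.7 per the file headers) wrote after background subtraction and error modelling, with no scaling between arrays; the value table of the series holds the same intensity values in 100% of the spots. Log2 of the processed signal minus the array's 75th percentile over non-control probes was computed here, spots of a probe were averaged, and control and outlier spots were left out. Probe accessions were matched without version to RefSeq gene names of GRCm38.p6, which named 28223 probes (68.5%). The test, limited to probes that the software marked as well above background in 4 or more of the 8 hearts, was limma 3.58.1 in R 4.3.3 (lmFit, eBayes, genotype as the only term), with Benjamini-Hochberg adjustment over all 25616 tested probes and a threshold of 0.05. For single values an exact two-sided permutation test was added. A gene with several probes is led by its brightest probe (mean over the 8 arrays). Values were prepared with Python 3.11.15, numpy 2.4.6, pandas 2.3.3 and scipy 1.17.1 and drawn with matplotlib 3.10.9. The fit was tested on simulated data.

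The members, the gene lists (from general knowledge) and the tests were chosen with earlier results of these data known. Named are every sirtuin probe, the 3 genes of each pathway list with the smallest p and those past the threshold, the neighbours of *Sirt1* past the threshold and the 3 genes most like each called sirtuin. *Ccar2*, *Nampt*, *Foxo1*, *Ppargc1a*, *Glud1*, *Dlat*, *Hnrnph3*, *Pbld2*, *Msi1*, *Pxn*, *Myh7*, *Hbb-y*, *Dntt* and *Lck* were added after their values were seen. For 1 gene that this rule names, the values are not reported here. Alternatives covered background correction, scaling, filter, test, weights, the replicate block, covariates, the probe of the gene and each heart left out. The slides hold 1 genotype each, so no slide block could be fitted. Hearts were not grouped by sex.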

Additional observations from a re-analysis of the deposited data

Results flagged for a closer look

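*Sirt4* in SIRT1 KO replicate 3 stood apart from the rest of its group. Its log2 signal was 1.66, while the other 3 hearts labelled SIRT1 KO lay at 1.83, and the gap to the nearest of them took 0.971 of the group's range, above Dixon's 95% critical value for 4 samples. It was the only case among 24 groups of sirtuin values (12 probes in 2 genotypes), where chance gives about 1 in 20. Without this heart the log2 fold change of *Sirt4* was 0.42 (limma adjusted p = 0.0312, against 0.0172 to 0.316 over all alternatives).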

How the results depend on the processing

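The count of 2 sirtuin probes past the threshold fell to 0 with median scaling, with no filter on dim probes, with the methods' analysis of variance, with the replicate block, with the Y-linked covariate and with the liver covariate (chosen after seeing the data), and ranged from 0 to 3 with 1 heart left out (3 without SIRT1 KO replicate 3, 1 without WT replicate 1 or 2, and 0 without any of the others). With no scaling it was also 2, but these were *Sirt2* (-0.32) and *Sirt3* (-0.35), both lower. The brighter *Sirt1* probe missed the threshold at 0.41 with median scaling, 0.32 with no scaling, 0.54 with no filter, the analysis of variance and the replicate block, 0.56 with the Y-linked covariate, 0.48 with the liver covariate and 0.21 as the mean of both probes (adjusted p from 0.0096 to 0.274 over its alternatives), and with a heart left out it lay between 0.47 and 0.63. *Sirt4* missed it at 0.25 with median scaling, 0.16 with no scaling, 0.38 with no filter, the analysis of variance and the replicate block, 0.37 with the Y-linked covariate and 0.34 with the liver covariate, and with a heart left out it lay between 0.33 and 0.42. Why the calls were lost was not tested; with no filter, more probes (41174) enter the adjustment. Directions reversed for the middle *Sirt2* probe (-0.019 with median scaling, -0.11 with no scaling), *Sirt5* as the mean of its probes (0.11) and *Sirt6* with normexp (0.041). The normexp alternative changed several choices together, since it took the median spot signal as input and added an offset of 50 units, and *Sirt6* lies at 30.0 to 71.6 units. The dimmer *Sirt5* probe passed with normexp (0.34), with array weights (0.45) and without SIRT1 KO replicate 3 (0.52). The median of all probes was -0.12 with median scaling and -0.21 with no scaling, and relative to it the middle *Sirt2* probe was at 0.10 in both. That value could not differ between them, since each setting shifts all probes of an array by 1 constant.

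With no scaling, 6347 of all 25616 tested probes passed the threshold, and the median of all probes was -0.21. In that setting the genes past it were 4 of 19 regulators, 4 of 15 in NAD+ supply and 9 of 36 SIRT1 substrates. They also included 10 of 28 mitochondrial substrates, 9 of 22 other partners and 3 of 20 neighbours of *Sirt1*. Median scaling gave 1 regulator and 2 mitochondrial substrates, normexp 2 NAD+ genes and 1 mitochondrial substrate, array weights 2 SIRT1 and 2 mitochondrial substrates, robust and trended eBayes 2 and 2, and the analysis of variance 2 SIRT1 substrates. With a heart left out the ranges were 1 to 2 for NAD+ supply and for SIRT1 substrates, 0 to 1 for mitochondrial substrates, other partners and neighbours, and 0 for regulators; the higher ends came without SIRT1 KO replicate 1 for NAD+ supply and without SIRT1 KO replicate 3 for the rest. Over all probes, 1250 were called as reported, 546 by the analysis of variance, 6347 with no scaling, 1784 with median scaling, 1448 with robust and trended eBayes, 2566 with normexp, 2130 with array weights, 768 with the Y-linked covariate, 652 with the liver covariate, 1185 with the replicate block and 657 to 1825 with a heart left out. The replicate numbers were not taken as pairs, because no source used here says what a pair shared. Deviations of same-numbered hearts correlated at 0.204, 0.207, 0.0562 and 0.141, and every array correlated best with its own number. The tests as reported may therefore leave out a real pairing. With the replicate block the limma adjusted p was 0.0645 for the brighter *Sirt1* probe and 0.0766 for *Sirt4*. The *Sirt1* probe difference kept its direction in all 13 alternatives run; with a heart left out the smallest exact permutation p is 0.0571. Dim signals limit *Sirt6* and the dimmer *Sirt5* probe.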
